A study of Mus musculus with 3 samples.

Results

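The 7 miRNAs described here, miR-26a (MIMAT0000533), miR-26b (MIMAT0000534), miR-103 (MIMAT0000546), miR-107 (MIMAT0000647), miR-191 (MIMAT0000221), miR-186 (MIMAT0000215) and miR-342-3p (MIMAT0000590), are encoded inside widely expressed protein-coding genes and served as a contrast to miRNAs enriched in Müller glia (MG). They are 7 of the 602 miRNAs of a NanoString panel. The first 6 were chosen for their host genes, whereas miR-342-3p was chosen by its large fall after light damage (LD), so that its LD value is a description and supports nothing. Mature miRNAs were counted in MG isolated by cell sorting from adult Rlbp1-CreER:tdTomato mice, in which a Cre driven by Rlbp1 labels MG after tamoxifen at 2 to 3 months of age (75 mg/kg, on 3 days in the sample labels and 4 in the methods). The wild type (wt) sample pooled 40 undamaged retinas and the LD sample 44 retinas taken 7 days after 8 h of light at 10000 lux. The Dicer-cKO sample pooled 26 retinas from mice that also carried Dicerf/f, 1 month after deletion of Dicer. All mice therefore carried the Cre and the reporter, but only the LD mice came from a cross with the albino Swiss Webster strain, which carries a leucine variant of Rpe65. The wt and Dicer-cKO samples were measured for an earlier study and normalized anew with the LD sample, so neither strain nor measurement series can be told apart from light damage. Each condition was a single pool of animals, which leaves no error between replicates and allows no test. Intervals are exact 95% intervals that cover counting error only.

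Many miRNAs lie in introns of protein-coding genes and can be transcribed together with their host, after which Drosha and Dicer cut the hairpin to the mature strand. The mature strand guides Argonaute to mRNAs that pair with its seed (bases 2 to 8), so that miRNAs with the same seed share many predicted targets. miR-26a and miR-26b are hosted by the Ctdsp genes for small phosphatases that act on RNA polymerase II and repress neuronal genes outside neurons. miR-103 and miR-107 are hosted by the Pank genes for pantothenate kinases, the entry enzymes of coenzyme A synthesis, and are known to target the mRNA of Dicer itself. miR-191 lies in Dalrd3 and is, like miR-103, often used as a reference in miRNA assays because many tissues express it evenly. miR-186 lies in Zranb2, a gene for an RNA-binding splicing protein, and miR-342-3p in Evl, a gene for an actin regulator that is also expressed in blood cells.

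The mature sequences are shown because the seed groups the 7 miRNAs into 5 sets, of which 2 are pairs that differ in very few bases. They are from RefSeq (GRCm38.p6), all 7 matched by name, and capitals mark the seed.

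miR-26a: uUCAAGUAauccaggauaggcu

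miR-26b: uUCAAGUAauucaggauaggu

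miR-103: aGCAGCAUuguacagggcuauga

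miR-107: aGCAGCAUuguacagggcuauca

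miR-191: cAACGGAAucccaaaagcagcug

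miR-186: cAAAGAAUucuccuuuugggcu

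miR-342-3p: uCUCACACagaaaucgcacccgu

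Counted from the 5′ end, miR-26b differs from miR-26a by C11U and C21U and is 1 base shorter, with 21 bases in place of 22. miR-107 differs from miR-103 by the single substitution G22C. Whether the panel tells these pairs apart without cross-hybridisation was not stated in the sources and was not tested. Among the 1679 mature mouse miRNAs of the RefSeq table, no other miRNA had the seed of either pair, and the seeds of miR-191, miR-186 and miR-342-3p occurred once each.

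Because 2 of the 7 mature strands have 2 loci each, the members come from 9 loci, and all 9 lay within the span of a protein-coding gene on the same strand. miR-26a is encoded at chr9:119031811-119031832 (plus strand) within Ctdspl and at chr10:126995543-126995564 (plus) within Ctdsp2, and miR-26b at chr1:74394324-74394344 (plus) within Ctdsp1. miR-103 is encoded at chr11:35782447-35782469 (plus) within Pank3 and at chr2:131288103-131288125 (plus) within Pank2, and miR-107 at chr19:34820700-34820722 (minus) within Pank1. miR-191 lies at chr9:108568325-108568347 (plus) within Dalrd3, miR-186 at chr3:157544285-157544306 (plus) within Zranb2, and miR-342-3p at chr12:108658680-108658702 (plus) within Evl. The table gives the spans of genes but no exons, so whether a locus is intronic was taken from the rule. The host mRNAs were not measured on this panel, and a count of miR-26a or miR-103 does not tell its loci apart.

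The depth differed between the samples. The deposited normalized counts are counts after background subtraction, multiplied by 1 factor per sample, 1.16 in wt, 2.04 after LD and 4.42 in Dicer-cKO MG. Before that scaling, all miRNA counts summed to 678722 in wt, 230232 after LD and 44258 in Dicer-cKO MG. For the last sample, 87 normalized counts therefore stand for 19.7 counts before scaling. The lowest value a sample can show stands for 1 count after background subtraction and was shared by 260 miRNAs in wt, 356 after LD and 359 in Dicer-cKO MG. Such a value is taken here as at most 3 counts, that is 3.46, 6.11 and 13.3 normalized counts. This is an assumption, since the background that was subtracted is not known. The factors rest on 4 reference mRNAs, which did not move together: Gapdh had 798.5 normalized counts in wt, 379.57 after LD and 621.63 in Dicer-cKO MG, whereas Rpl19 had 741.91, 1268.97 and 701.19. The ratios of members above the lowest value in both samples were therefore recomputed under 8 other scalings. These were each of the 4 mRNAs alone, the same total of all miRNA counts, and that total without miR-720 (highest after LD). The others were the 100 miRNAs with the highest means set to an equal geometric mean, and the median of ratios. The paper describes miR-720 as a tRNA fragment that has lost its standing as a miRNA. It is counted among the panel miRNAs here unless left out by name.

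The samples carried the miRNAs of MG at high levels. The 7 mGliomiRs, the study's own list of glia-enriched miRNAs (miR-204, miR-125b-5p, miR-9, miR-99a, miR-135a, miR-100 and miR-23a), made up 65.4% of all miRNA counts in wt, 28.7% after LD and 38.8% in Dicer-cKO MG. Leaving miR-720 out of the totals, a choice made after seeing the data, these shares were 67.4%, 45.5% and 41.1%, so that the order of LD and Dicer-cKO turned. miR-204 was the most abundant of them in all 3 samples. The list comes from earlier work of the same group on sorted MG. The neuronal miR-124 had 1354 normalized counts in wt, 5506 after LD and 12106 in Dicer-cKO MG. It was thus higher in the samples in which most of the members described here were lower in the authors' scaling, and its part in their values was not tested.

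Of the 7 miRNAs, 5 had a mean of at least 100 normalized counts over the 3 samples, and miR-107 and miR-186 did not. Together the 7 made up 0.607% of all miRNA counts in wt, 0.362% after LD and 1.23% in Dicer-cKO MG. Without miR-720 in the totals they made up 0.626%, 0.573% and 1.31%, so that most of the lower share after LD went with miR-720. In wt MG miR-342-3p was the highest of them, at rank 24 of 602, followed by miR-191 at rank 43, miR-26b at 51, miR-103 at 60, miR-26a at 82, miR-107 at 116 and miR-186 at 319. The counting intervals of neighbours in this order did not overlap. Because each miRNA has its own capture efficiency, this is an order of signals. In Dicer-cKO MG the order was led by miR-26b instead, at rank 24. Of the summed signal of the 7, miR-342-3p held 51.4% in wt, 34.5% after LD and 32.0% in Dicer-cKO MG, and miR-26b 13.1%, 42.5% and 56.0%, so that the pair changed places as the strongest signal.

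**Figure D1:**
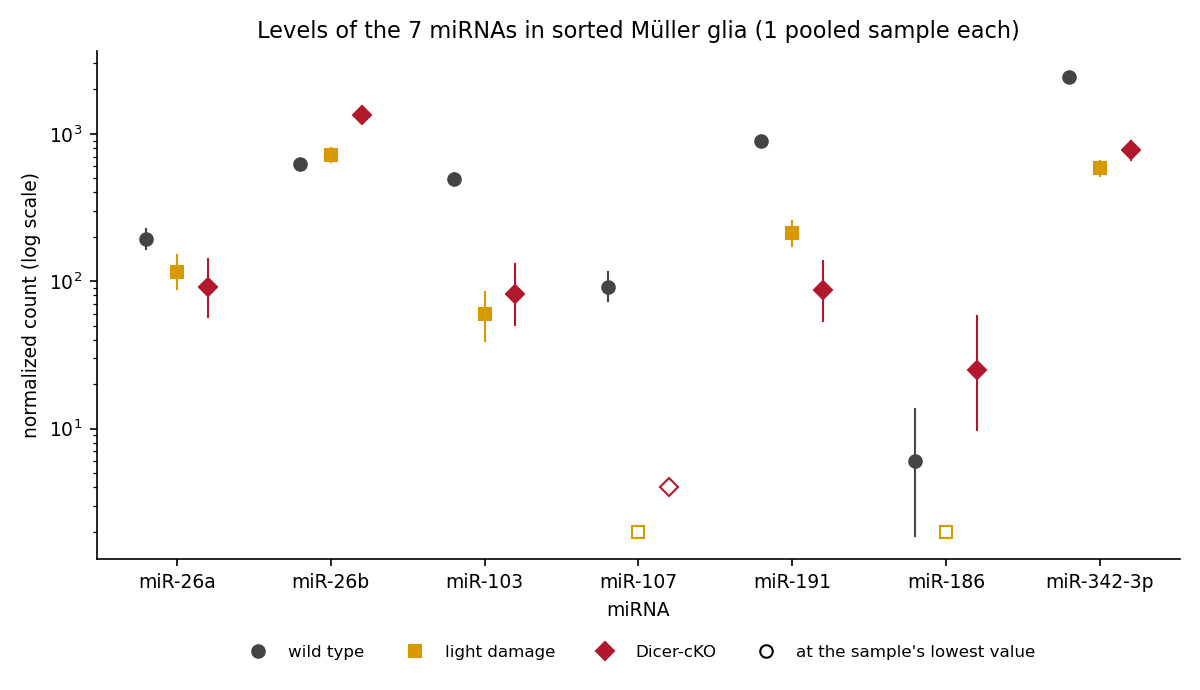
Normalized counts (log axis) of the 7 miRNAs in the 3 pooled samples, with bars for exact 95% Poisson intervals of the count and open symbols for the lowest value of a sample. miR-26b lies at 624, 721 and 1351 and miR-342-3p at 2445, 585 and 772 in wt, LD and Dicer-cKO MG in the authors' scaling.

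The miR-26 pair separated. miR-26a had 194 normalized counts in wt, 115 after LD and 91 in Dicer-cKO MG, of which the last stands for 20.6 counts before scaling. miR-26b had 624, 721 and 1351 normalized counts. The wt sample was the highest for miR-26a and the lowest for miR-26b. miR-26a was at 0.593 of its wt level after LD (95% interval 0.435 to 0.812) and at 0.469 in Dicer-cKO MG (0.289 to 0.755). miR-26b was at 1.16 of its wt level after LD (1.01 to 1.32) and at 2.17 in Dicer-cKO MG (1.88 to 2.50). In such pooled samples fewer cells of a type and less RNA per cell cannot be told apart.

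Each of these ratios depends on the reference mRNAs, but a ratio between miRNAs of the same sample does not. The signal of miR-26b was 3.22 times that of miR-26a in wt, 6.27 times after LD and 14.8 times in Dicer-cKO MG. The shift from wt was 1.95-fold after LD (exact conditional interval 1.38 to 2.74) and 4.62-fold in Dicer-cKO MG (2.80 to 7.67), and both intervals lie above 1. LD and Dicer-cKO MG also differed from each other in this balance (0.422, 0.240 to 0.734). The summed signal of the pair, whose members carry the same seed, was 818 in wt, 836 after LD and 1442 in Dicer-cKO MG, but this sum does depend on the scaling. After LD it was between 0.598 of wt (Rpl19 alone) and 2.63 times wt (total without miR-720), and in Dicer-cKO MG between 1.36 (B2m alone) and 7.26 times wt (total without miR-720).

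Under the other scalings, miR-26b was above its wt level in Dicer-cKO MG in all 8 (1.67 to 8.91). After LD it was above wt in 6 of the 8 and below it with Actb (0.977) or Rpl19 (0.676) as the only reference, and the interval held 1 in 2 (Actb and B2m). For miR-26a after LD (0.347 to 1.52), the counting interval lay below 1 in 3 of the 8, above it in 1 and held 1 in 4. In Dicer-cKO MG (0.363 to 1.93) it lay below 1 in 4, above it in 2 and held 1 in 2. The direction of miR-26a is therefore not settled by these data, whereas its difference from miR-26b does not depend on the scaling.

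In the authors' scaling the miR-103 and miR-107 pair was lower in both conditions. miR-103 had 496 normalized counts in wt, 60 after LD and 82 in Dicer-cKO MG, so that wt was high and the other samples lay close together. It was 8.27-fold lower after LD (ratio 0.121, interval 0.0788 to 0.174) and 6.05-fold lower in Dicer-cKO MG (0.165, 0.101 to 0.268). miR-107 had 92 normalized counts in wt and stood at the lowest value of the sample after LD (2) and in Dicer-cKO MG (4). If the assumed bound of 3 counts per sample holds, it was at least 15.1-fold lower after LD and at least 6.94-fold lower in Dicer-cKO MG. Both folds take the wt value without its counting interval (73.3 to 115). They hold in the authors' scaling only and were not recomputed under the others. miR-103 remained below its wt level under all 8 other scalings, at 0.0707 to 0.311 after LD and at 0.128 to 0.680 in Dicer-cKO MG, where the counting interval held 1 under both totals. After LD its ratio was among the lowest of those ranked, with 2 of the other 103 miRNAs of mean at least 100 below it and 101 above it. miR-103 passed this limit only through its wt value of 496. miR-107, at most 0.0664 of wt after LD under the assumed bound, did not pass it, so this place is given as a description only. In the authors' scaling the difference between LD and Dicer-cKO MG was within counting error for miR-103 (0.732, 0.381 to 1.33), but under 5 of the 8 other scalings the interval lay below 1, as with the same total (0.306, 0.159 to 0.554). For miR-107 both values were the lowest possible.

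miR-191 had 899 normalized counts in wt, 211 after LD and 87 in Dicer-cKO MG, and the 3 samples lay in this order with no overlap of their counting intervals. miR-191 was 4.26-fold lower after LD (0.235, 0.190 to 0.289) and 10.3-fold lower in Dicer-cKO MG (0.0968, 0.0598 to 0.153). In Dicer-cKO MG, 6 of the other 103 miRNAs had a lower ratio and 97 a higher one. It was below wt under all 8 other scalings, at 0.137 to 0.603 after LD and at 0.0749 to 0.398 in Dicer-cKO MG. Its level after LD was 2.43 times that in Dicer-cKO MG (1.47 to 4.08), but 1.01 times with the same total miRNA count in every sample, and the interval lay above 1 under 3 of the 8 other scalings.

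miR-186 was near the limit of detection. It had 6 normalized counts in wt, the lowest value of 2 after LD and 25 in Dicer-cKO MG. Before scaling, wt and Dicer-cKO MG differed little, with 5.20 and 5.66 counts, from samples whose total counts were 678722 and 44258. After scaling, Dicer-cKO MG stood at 4.17 times wt (1.17 to 19.0) and at 3.22 to 17.1 times under the 8 other scalings, with the interval above 1 in 7 of them. All scalings reuse the same few counts and give no independent support. The error of the subtracted background, which weighs most on such low counts, is not in these intervals. The LD value allows up to 6.11 normalized counts, which holds the wt value, so no fold is given.

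miR-342-3p had 2445 normalized counts in wt, 585 after LD and 772 in Dicer-cKO MG. Here wt was far above the others, and the LD sample was the lowest. After LD, the level on which this miRNA was selected was 4.18-fold below wt (0.239, 0.210 to 0.270), from rank 24 to rank 47. In Dicer-cKO MG, a level that the choice did not use, against the wt level that it did use, it was 3.17-fold lower (0.316, 0.270 to 0.369) at rank 36. Its LD level, on which it was selected, was 0.758 of that in Dicer-cKO MG (0.624 to 0.917). This ratio was below 1 in 7 of the 8 other scalings, down to 0.316 with the same total miRNA count. It was 1.24 with Gapdh alone, and with B2m alone the interval held 1 (0.942, 0.775 to 1.14). Against wt, miR-342-3p was lower after LD in all 8 (0.140 to 0.615) and in Dicer-cKO MG in 6. It lay above wt in Dicer-cKO MG with the same total miRNA count (1.27) or that total without miR-720 (1.30).

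**Figure D2:**
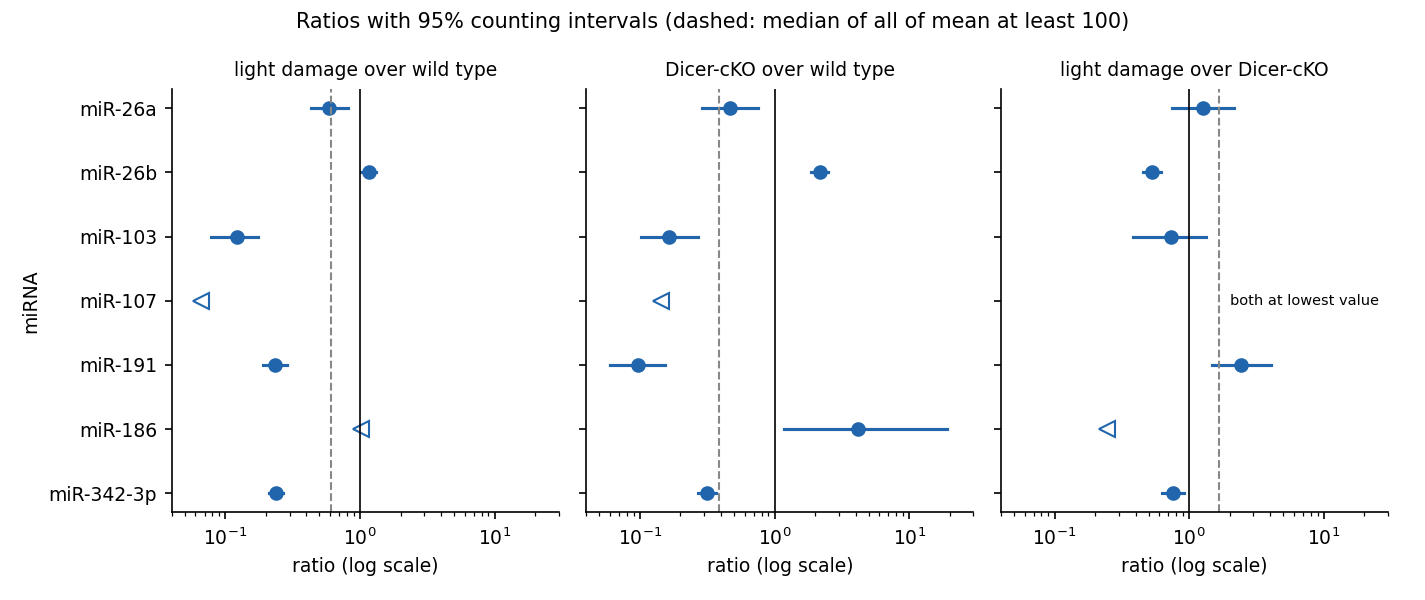
Ratios of normalized counts (log axis) of the 7 miRNAs in the 3 comparisons, with lines for 95% counting intervals. A dashed line marks the median of 104 miRNAs. Open triangles mark upper limits where the first sample was at its lowest value, assumed to be at most 3 counts. miR-103 lies at 0.121 after LD and 0.165 in Dicer-cKO MG. Its ratios were below 1 under all 8 other scalings as well, but for Dicer-cKO the interval held 1 under both totals.

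The members were also set against each other, which cancels the scaling. Of the 6 pairs among miR-26a, miR-26b, miR-103 and miR-191, the ratio to wt differed beyond counting error in 6 after LD and in 5 in Dicer-cKO MG, where miR-191 with miR-103 was the exception (0.585, 0.291 to 1.16). Between LD and Dicer-cKO MG 3 of these 6 pairs differed. The share of such pairs among all miRNAs of mean at least 100 was not computed, and the 6 pairs reuse the same miRNAs. These counts therefore do not set the members apart from the panel. The widest gap there was that of miR-191 and miR-26b, whose LD over Dicer-cKO ratios differed 4.54-fold (2.68 to 7.84), that of miR-191 being the larger. The ratios of miR-342-3p to wt rest on the wt level that the choice used and are given as a description only. Its ratio in Dicer-cKO MG was 0.146 of that of miR-26b and 3.26 times that of miR-191. After LD it was 0.207 of that of miR-26b and 1.02 times that of miR-191. The median ratio of the other 6 members was 0.284 after LD and 0.317 in Dicer-cKO MG, against which miR-342-3p stood at 0.842 and 0.995, but the values of miR-107 and miR-186 in these medians include lowest values.

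**Figure D3:**
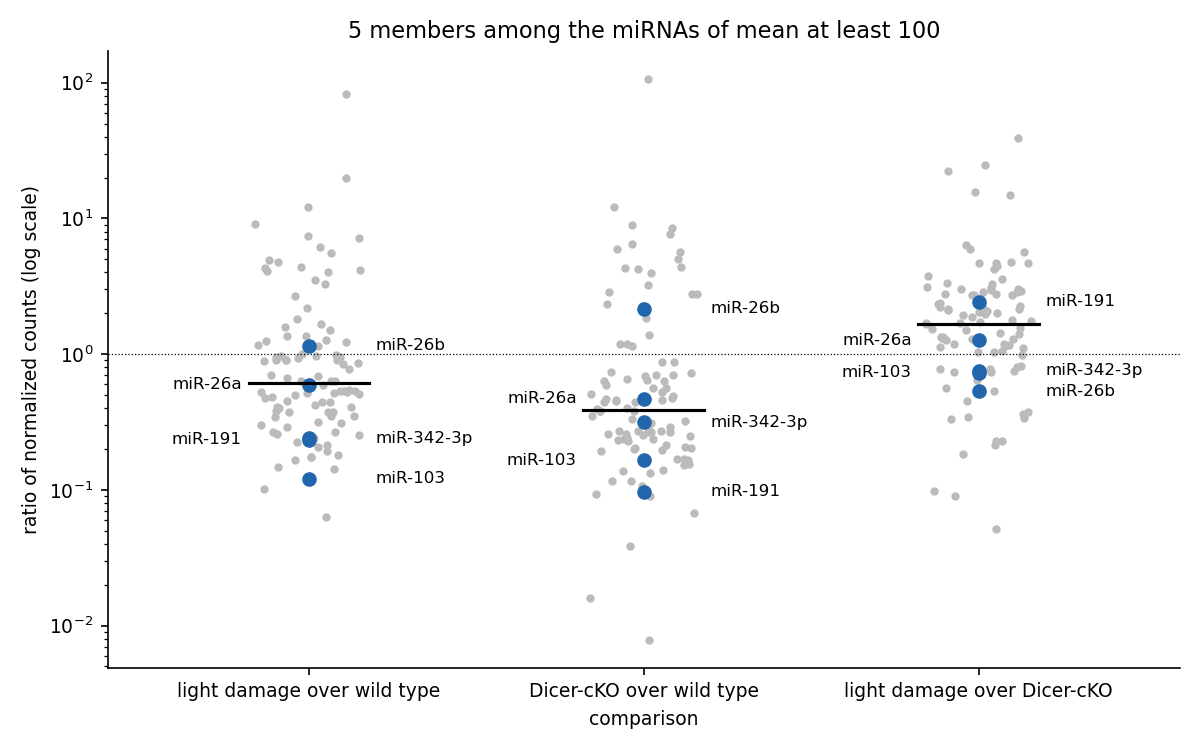
Ratios (log axis) of the 104 miRNAs of mean at least 100 in the 3 comparisons, with the 5 named miRNAs in blue and a bar for the median of all 104. In the authors' scaling miR-26b lies above the median of all 104 for both ratios to wt (1.16 and 2.17) and below it for LD over Dicer-cKO (0.534).

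Against the whole panel, the levels of the other miRNAs give the scale for these values. In the authors' scaling, 39.4% of the 104 miRNAs of mean at least 100 were at least 2-fold lower after LD than in wt. So were 3 of the 5 members, namely miR-103, miR-191 and miR-342-3p, the last by choice. miR-103 passed the limit of 100 only through its wt value (496, against 60 after LD and 82 in Dicer-cKO MG). Its calls against wt are therefore not independent of that limit. In Dicer-cKO MG 60.6% of the 104 and 4 of the 5 members were at least 2-fold lower, the additional one being miR-26a. Conversely, miR-26b was at least 2-fold above wt in Dicer-cKO MG, as were 19.2% of the 104. With B2m alone miR-26b was at 1.67 and did not pass 2-fold. Under the 8 other scalings the share of the 104 ran from 16.3% (B2m alone) to 40.4% (total without miR-720). For LD over Dicer-cKO, 41.3% were at least 2-fold higher, among them miR-191. Under the 8 other scalings this share ran from 8.65% (same total) to 63.5% (Gapdh alone), with 0 to 2 of the 5 members. miR-191 then lay at 1.01 to 3.97, so that it did not pass 2-fold under each of them. These shares move with the scaling, and the share at least 2-fold lower than wt ran from 9.62% to 57.7% after LD, with 1 to 4 of the 5 members, and from 9.62% to 68.3% in Dicer-cKO MG, also with 1 to 4. The lowest shares were those with the total without miR-720 and, for Dicer-cKO, with either total, and the highest those with Rpl19 for LD and B2m for Dicer-cKO. With 5 members these counts do not set the group apart from the panel. miR-107 and miR-186 did not pass the limit of 100 and are not in them. Both comparisons with wt share the wt sample.

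The median ratio of the 7 members was 0.239 after LD, 0.316 in Dicer-cKO MG and 0.732 for LD over Dicer-cKO, of which the first 2 are the values of miR-342-3p itself. The corresponding medians of the 104 miRNAs were 0.613, 0.388 and 1.67. For the 7 mGliomiRs they were 0.486, 0.166 and 2.15, with all 7 lower than wt in both conditions in the authors' scaling. Taking lowest values at their bound left the member medians at 0.239 and 0.316, and gave 0.745 over 6 members for LD over Dicer-cKO. Since the member median after LD is the value that chose miR-342-3p, nothing is read from its distance to the other medians.

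Relative to the median of the 104, which no scaling changes, miR-26a lay at 0.967 after LD and 1.21 in Dicer-cKO MG. miR-26b lay at 1.88 and 5.57, miR-103 at 0.197 and 0.426, miR-191 at 0.383 and 0.249, and miR-342-3p at 0.390 and 0.813. In both conditions miR-26a hence lay near the middle of these 104, miR-26b above it, and miR-103 and miR-191 below it. For miR-103, which passed the limit of 100 only through its wt value, this place is a description only. miR-342-3p lay below the middle after LD, for which it was chosen, and closer to it in Dicer-cKO MG, where 45 of the other 103 miRNAs had a lower ratio.

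**Figure D4:**
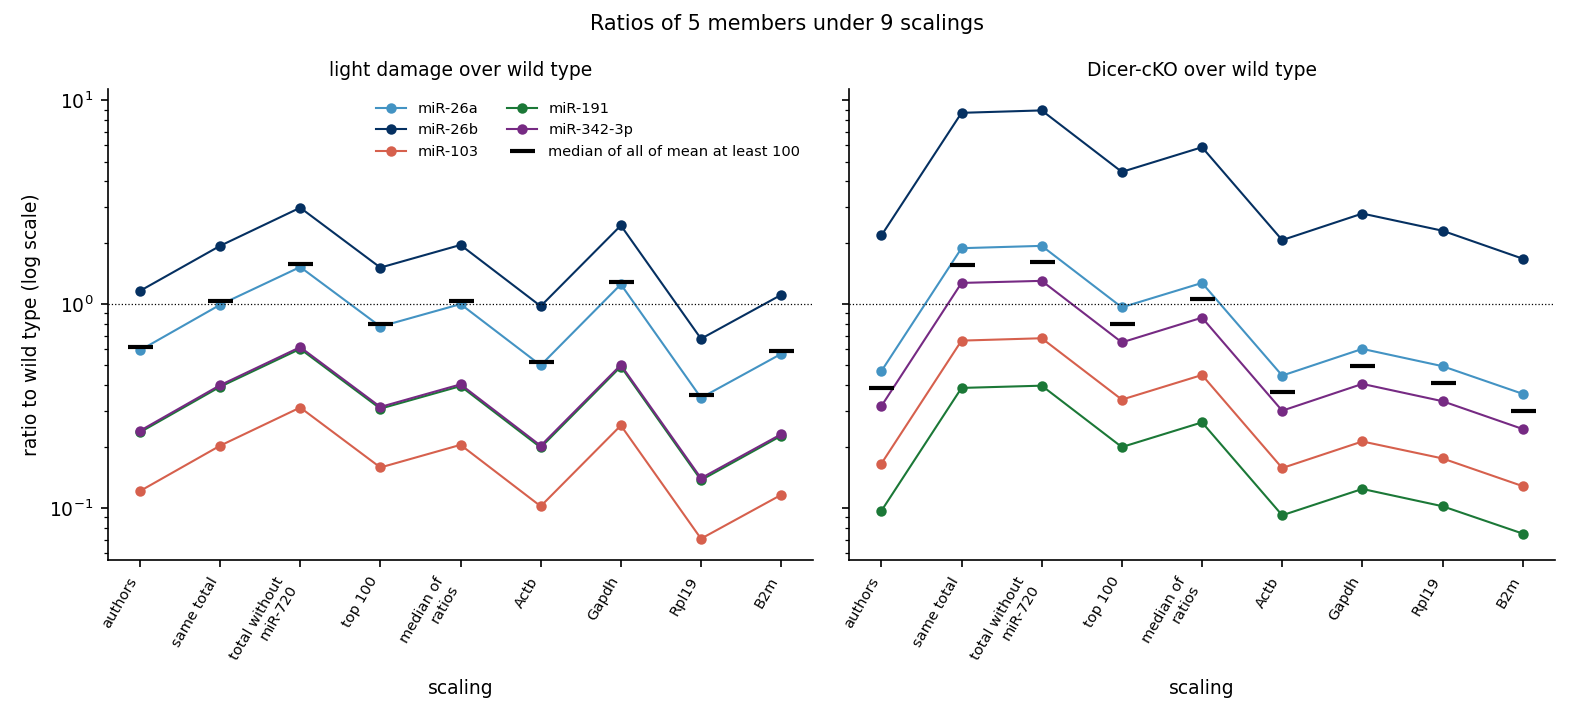
Ratio to wt (log axis) of 5 of the miRNAs and the median of 104 miRNAs (bars) under the authors' scaling and 8 others, with lines that join the same miRNA. For LD the line of miR-342-3p lies over that of miR-191. The lines run parallel, so the gaps between miRNAs stay fixed, while miR-26a crosses 1 under some scalings in each comparison (0.347 to 1.52 and 0.363 to 1.93), miR-26b in 2 of the 8 after LD and miR-342-3p in 2 for Dicer-cKO.

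Patterns most like those of the members were sought by the distance between the log2 ratios of LD and Dicer-cKO to wt, over the 104 miRNAs and these 3 samples. The nearest to miR-342-3p was MIMAT0009434 with 253 normalized counts in wt, 52 after LD and 69 in Dicer-cKO MG, at a distance of 0.304. The nearest to the median of the other 4 members of mean at least 100 was MIMAT0000652 with 2358, 903 and 675 normalized counts, at 0.0550. The files do not pair these identifiers with names, and nothing is drawn from the likeness.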

How the data were processed

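The authors processed molecule counts of all 3 samples together in nSolver 4.0, with 8 negative and 6 positive controls and with Actb, B2m, Gapdh and Rpl19 as the 4 reference mRNAs. The deposited signal holds 626 rows, namely 602 miRNAs, 4 mRNAs, 14 ERCC rows and 6 nmiR rows. A factor per sample was read from the steps between the values of the mRNA and nmiR rows. Dividing by it gave counts before scaling, and all 342 (wt), 246 (LD) and 243 (Dicer-cKO) miRNAs above the lowest value were then whole counts plus a constant of the sample, with a tolerance of 0.51 normalized counts. How much background nSolver subtracted is not known, and its error is not in the intervals. For the intervals the counts were rounded to whole numbers. Intervals of ratios are Clopper-Pearson intervals, those between members exact conditional intervals of the odds ratio, without a pseudocount. The Clopper-Pearson code was checked on simulated Poisson counts without background, for both comparisons with wt and above a minimum expected count. Some member counts in Dicer-cKO MG lay below that minimum. The intervals of the odds ratio were not checked in this way.

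Alternatives were the other scalings, a pseudocount of 1, a further background subtraction, other folds and other minimum means. The named miRNAs were the members, the mGliomiRs, miR-124, miR-720 as a term of a scaling, and the nearest patterns, of which 1 per pattern is printed. The members and lists were chosen with earlier results of these data known. Names of members came with their identifiers. A further 9 rows were named by bars of the study's plots read by eye. The lists of photoreceptor, immune, red blood cell and vessel miRNAs, of other intronic miRNAs and of further products of the same hairpins were not analysed here, because no table pairs identifiers with names. Calculations used scipy 1.17.1 and numpy 2.4.6 in Python 3.11.15, tables pandas 2.3.3, and plots matplotlib 3.10.9.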

Additional observations from a re-analysis of the deposited data

How the results depend on the processing

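With a single pool per condition, there was no replicate to leave out or to pair. The ratio of miR-103 to miR-107 was not run, since miR-107 was at the lowest value in 2 samples, and ratios with a lowest value were not rescaled one by one. A scaling multiplies all miRNAs of a sample alike. It moved the log2 ratios by -0.77 to 1.36 for light damage (LD) over wild type (wt), by -0.37 to 2.04 for Dicer-cKO over wt and by -1.26 to 0.71 for LD over Dicer-cKO.

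Under every scaling here, the median ratio of the 7 members to wt was the value of miR-342-3p itself. That miRNA was chosen by its fall after LD, so these medians are a description only. For LD over wt the median was 0.239. It was 0.400 with the same total miRNA count, 0.615 with that total without miR-720, 0.313 with the 100 miRNAs of highest mean, 0.404 with the median of ratios, 0.202 with Actb, 0.503 with Gapdh and 0.140 with Rpl19. For Dicer-cKO over wt, 0.316 turned into 1.27 with the same total and 1.30 without miR-720, and moved to 0.649 with the highest 100, 0.858 with the median of ratios, 0.406 with Gapdh and 0.244 with B2m. For LD over Dicer-cKO, 0.732 was above 1 with Gapdh (1.20) and moved to 0.306 with the same total, 0.457 without miR-720, 0.466 with the highest 100, 0.455 with the median of ratios and 0.404 with Rpl19.

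For Dicer-cKO over wt, miR-26a turned to 1.88, 1.93 and 1.27 with the same total, that total without miR-720 and the median of ratios, and miR-342-3p to 1.27 and 1.30 with the first 2 of these. The cause was not tested. The number of members at least 2-fold lower after LD, 3, became 1 without miR-720 and 1 at a mean of at least 500. In Dicer-cKO it went from 4 to 1 with either total and at a mean of at least 500, which keeps 2 members, and to 2 with the highest 100 or the median of ratios. With a pseudocount of 1, miR-342-3p over the median of the others moved from 0.842 to 0.721 for LD over wt. This value rests on the LD level that chose miR-342-3p and is a description only. Of the 160 member ratios under all alternatives, 87 stayed within their counting interval.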
